A study of Homo sapiens with 4 samples.

Results

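Keratin genes were chosen by symbol (KRT, a number and at most one of the letters A to C), which left out keratin-associated proteins and pseudogenes. The rule gave 55 genes of the 60623 in the count files. They were 28 type I keratins, 26 type II keratins and KRT222, which has neither label. The RNA-seq libraries came from BICR10, a human line labelled head and neck cancer, transduced with lentivirus carrying a control hairpin (shControl, 2 libraries) or a hairpin against YEATS2, a histone reader (shYEATS2, 2 libraries). No other allele or agent separated the groups, and the study's methods name puromycin selection for both. The study made more than 1 hairpin against YEATS2, and the labels do not say which of them a library carried. Nothing in the labels says that the libraries came from separate cultures, so the spread between them may be technical.

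Keratins are the intermediate filament proteins of epithelial cells. A filament is built from acidic type I chains paired with basic type II chains, and each epithelial layer makes its own pairs. KRT8 with KRT18 fills simple, single-layered epithelia. KRT5 with KRT14 marks the dividing basal layer of stratified epithelia such as the mouth lining, and KRT1 with KRT10 the suprabasal layers that leave it. KRT6 with KRT16 and KRT17 are the stress keratins of wounded or activated epithelium. Hair keratins form the hardened hair shaft. The type II genes lie together on chromosome 12, with the type I gene KRT18 at one end, and the other type I genes lie on chromosome 17.

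The keratin set shifted unevenly in the shYEATS2 libraries. KRT2, the stress keratins KRT6A, KRT6B and KRT16 and the basal pair KRT5 and KRT14 fell by more than the simple pair KRT8 and KRT18, and KRT10 moved least among the called falls. KRT34, KRT15 and KRT80, which were rare in shControl, rose. Of the 15 keratins with enough counts to test, 10 were lower and 4 higher at an adjusted p under 0.05 in edgeR's quasi-likelihood test, and KRT86 was not called. Over all 17058 genes tested, 23.6% were lower and 22.6% higher by the same rule. With library totals in place of TMM scaling, 2567 genes were lower and 5441 higher, and 9 and 4 of the keratins. With a change of at least 2-fold as a further condition, 7 keratins were lower, beside 3.70% of all genes, and 3 were higher, beside 5.99%.

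The libraries carried 47297970 and 39824898 counts on genes in shControl and 24072396 and 11334133 in shYEATS2, so depth cannot be told apart from the knockdown. A count of 0 allows up to 3 counts, which is 0.0634 and 0.0753 CPM (counts scaled by library total) in shControl 1 and 2 and 0.125 and 0.265 CPM in shYEATS2 1 and 2. This limit covers counting error only, and all other CPM values are TMM-normalized. YEATS2 itself (ENSG00000163872) stood at 66.1 and 66.7 CPM in shControl and at 29.2 and 29.1 CPM in shYEATS2, a log2 fold change of −1.19 (standard error, SE, 0.08). The targeted mRNA was thus lower in both libraries labelled shYEATS2, at 43.95% of its shControl level.

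The line was checked against 22 squamous epithelial markers other than keratins and 15 fibroblast markers. Among the squamous markers, GRHL2 had no count in any library, and TP63, the master regulator of stratified epithelium, stayed between 0 and 0.255 CPM. OVOL1, FXYD3 and ESRP1 were at or near 0, and 9 of the 22 had a mean under 1 CPM. The summed level of all squamous markers was 490 and 508 CPM in shControl and 486 and 465 CPM in shYEATS2. The summed level of the fibroblast markers was 8279 and 8198 CPM in shControl and 2929 and 2757 CPM in shYEATS2, and 1 of the 15 had a mean under 1 CPM. Regulators that define squamous epithelium were thus at or near 0 in a line labelled head and neck cancer, and fibroblast genes were well covered. What this means for the keratin results was not tested. In bulk RNA, fewer cells that make a keratin and less keratin mRNA per cell cannot be told apart.

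Several keratins are near copies of each other, which bears on how read pairs were shared out between them. KRT6A, KRT6B and KRT6C differ at few coding bases, with an identity of 97.5% between KRT6A and KRT6B and of 97.9% between KRT6A and KRT6C over 1692 coding bases. Their coding exon 6, chosen to show how alike they are, is printed in lower case with the bases that differ from KRT6A in capitals. It lies at chr12:52489943-52490068, chr12:52448842-52448967 and chr12:52470505-52470630 (GRCh38, minus strand, read 5′ to 3′).
KRT6A: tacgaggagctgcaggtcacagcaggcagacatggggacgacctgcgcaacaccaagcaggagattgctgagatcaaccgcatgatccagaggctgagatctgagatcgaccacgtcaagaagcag
KRT6B: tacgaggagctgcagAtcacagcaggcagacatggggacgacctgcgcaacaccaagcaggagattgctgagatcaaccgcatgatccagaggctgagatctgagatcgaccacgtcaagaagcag
KRT6C: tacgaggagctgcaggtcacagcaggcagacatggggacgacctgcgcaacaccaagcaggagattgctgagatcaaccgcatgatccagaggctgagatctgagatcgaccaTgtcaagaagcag
The hair keratins KRT81 and KRT86 are also close, with 97.2% identity over the 8 coding exons of equal length. Their coding exon 2, at chr12:52290078-52290286 on the minus strand and chr12:52303100-52303308 on the plus strand, is the same in both genes.
KRT81 and KRT86: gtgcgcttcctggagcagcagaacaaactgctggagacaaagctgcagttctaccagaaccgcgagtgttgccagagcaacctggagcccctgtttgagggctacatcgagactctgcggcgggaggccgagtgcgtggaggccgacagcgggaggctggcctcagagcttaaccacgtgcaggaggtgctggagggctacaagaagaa
Of all 100-base windows in their exons, 69.6% were found once in the genome for KRT81, 74.4% for KRT86, 82.4% for KRT6A, 78.4% for KRT6B and 77.8% for KRT6C. Pairs aligned to more than 1 place were kept out of the gene counts, so levels of these genes rest on uniquely placed pairs and are uncertain. The windows lay within single exons of 100 bases or more, whereas the reads were 150 bp pairs that can cross exon junctions. The window shares thus do not measure the part of each gene that could be counted. Every other keratin tested had at least 92.9% unique windows.

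**Figure D1:**
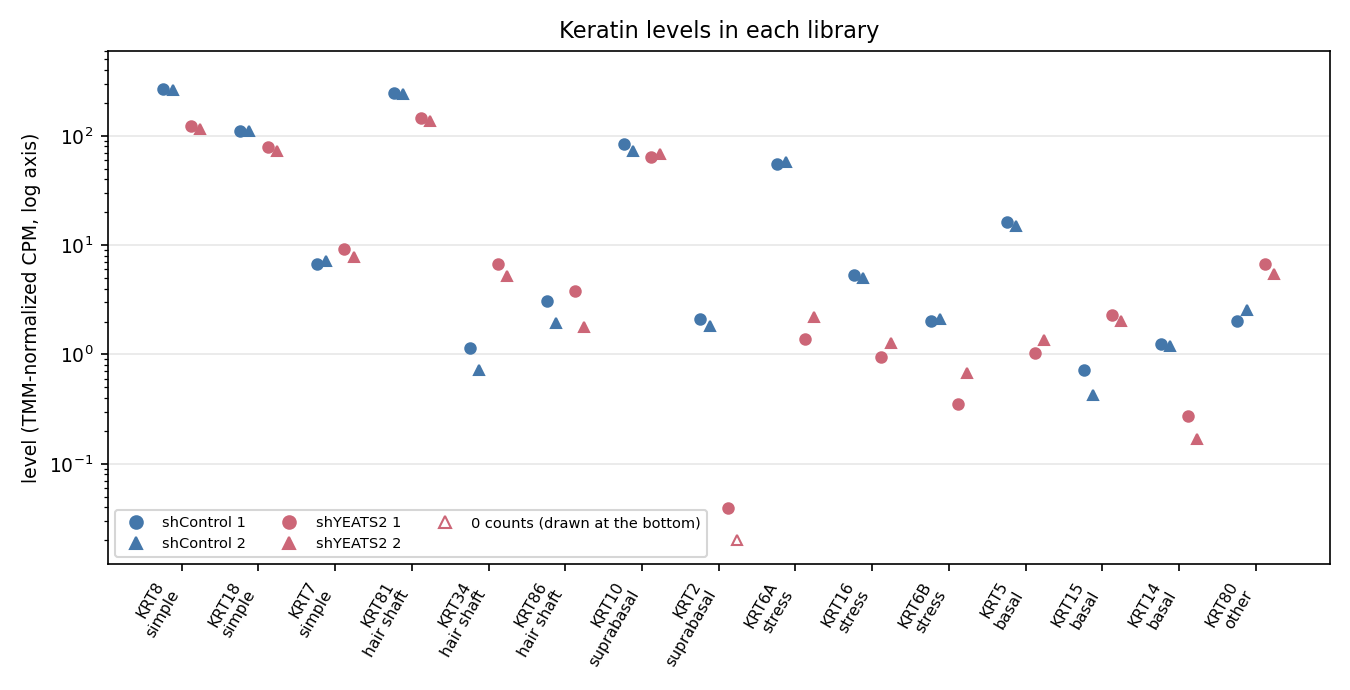
Level of the 15 tested keratins in each library, in TMM-normalized CPM on a log axis, grouped by class. Blue marks shControl and red shYEATS2, circles replicate 1 and triangles replicate 2; KRT6A stands at 55.0 and 58.2 CPM in shControl and at 1.38 and 2.21 CPM in shYEATS2, whereas the 4 points of KRT86 overlap.

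All 3 tested stress keratins were lower. KRT6A (ENSG00000205420, chr12:52487176-52493257), the wound-induced type II chain, had 55.0 and 58.2 CPM in shControl and 1.38 and 2.21 CPM in shYEATS2. Its log2 fold change was −5.09 (SE 0.14, edgeR adjusted p = 1.17e-41), number 14 in order of fall of the 17058 genes, and 2.93% of the shControl level was left. Both knockdown libraries lay far below both controls. KRT6B read 2.03 and 2.12 CPM in shControl against 0.355 and 0.679 CPM in shYEATS2, a log2 fold change of −2.14 (SE 0.38). KRT6B counts came to 3.69% and 3.64% of KRT6A counts in shControl and to 25.7% and 30.8% in shYEATS2. The uniquely placed counts of these near copies thus did not shrink in the same proportion. The shYEATS2 percentages rest on only 9 and 8 KRT6B counts and 35 and 26 KRT6A counts. KRT16 (chr17:41609778-41615899), the type I partner of KRT6, went from 5.31 and 5.00 CPM to 0.947 and 1.27 CPM, a log2 fold change of −2.28 (SE 0.25). KRT17, another type I stress keratin, did not pass the filter on low counts. It had 12 and 15 counts in shControl and 2 and 0 counts in shYEATS2. KRT6C was also untested, with 5 and 1 counts in shControl and 3 and 3 counts in shYEATS2.

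The basal keratins moved in both directions, with 2 members lower and 1 higher. KRT5 (chr12:52514575-52520530), the type II chain of the basal layer, stood at 16.4 and 14.95 CPM in shControl and at 1.03 and 1.36 CPM in shYEATS2. Its log2 fold change was −3.78 (SE 0.18, edgeR adjusted p = 5.26e-28). Its type I partner KRT14 was rare in both groups, between 0.170 and 1.23 CPM, and had a log2 fold change of −2.31 (SE 0.50). KRT15 (chr17:41513745-41522529), the other type I basal chain and a marker of hair follicle stem cells, had 0.728 and 0.423 CPM in shControl and 2.29 and 2.04 CPM in shYEATS2. It rose with a log2 fold change of 1.90 (SE 0.34). Both knockdown libraries were above both controls for KRT15 and below them for KRT5 and KRT14.

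Of the 9 suprabasal keratins, 4 had no count in any library, KRT1 and KRT13 among them, and 2 were tested. KRT10 (chr17:40818117-40822614), the type I chain of differentiating epidermis, had 84.4 and 72.4 CPM in shControl and 64.3 and 68.2 CPM in shYEATS2. This was the smallest of the called falls, a log2 fold change of −0.25 (SE 0.07, edgeR adjusted p = 0.00331). The call was lost without shControl 1 (log2 fold change −0.14, adjusted p = 0.339) and with library totals in place of TMM (−0.12, adjusted p = 0.210). KRT2 (chr12:52644558-52652211), the type II chain of the uppermost living epidermis, had 96 and 69 counts in shControl and 1 and 0 counts in shYEATS2. Per normalized count, shYEATS2 held 1.36% of the shControl level, with an exact 95% counting interval of 0.0342% to 7.67% that ignores spread between libraries. The edgeR log2 fold change of −6.00 (SE 0.67) depends on the prior count and is not a bound. Without shYEATS2 1 it was −8.97.

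The simple epithelial keratins KRT8 and KRT18 gave, with KRT81 and KRT10, most keratin counts in each library. KRT8 (chr12:52897187-52949954) had 269 and 264 CPM in shControl and 123.04 and 115 CPM in shYEATS2, a log2 fold change of −1.16 (SE 0.06, edgeR adjusted p = 1.25e-25). Its partner KRT18 (chr12:52948871-52952906) fell from 110 and 111 CPM to 78.2 and 72.3 CPM, a log2 fold change of −0.55 (SE 0.07). The pair thus fell together, and KRT8 by more. The 2 genes lie next to each other and share 525 exonic bases on opposite strands. The kit was stranded, but the strand setting of the counting is not given in the sources used here, so reads in the overlap are uncertain. KRT7 likewise shares 282 exonic bases with its antisense gene KRT7-AS, and KRT10 shares 61 with KRT10-AS1. KRT7, a type II chain of glandular epithelium, had 6.79 and 7.09 CPM in shControl and 9.28 and 7.81 CPM in shYEATS2. Its rise, a log2 fold change of 0.33 (SE 0.14), barely passed the threshold (edgeR adjusted p = 0.0491). DESeq2 gave an adjusted p of 0.348, and leaving out shControl 1, shControl 2 or shYEATS2 1 gave 0.227, 0.123 and 0.562. KRT19 and KRT20 had no count in any library.

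The 17 hair shaft keratins were mostly rare or undetected, with 7 at 0 in all libraries and 3 tested. KRT81 (chr12:52285913-52291534) had 246 and 241 CPM in shControl and 145 and 135 CPM in shYEATS2, a log2 fold change of −0.79 (SE 0.06, edgeR adjusted p = 7.46e-18). Per kilobase of exon it was the most abundant keratin mRNA in both groups, at 126 CPM per kb in shControl and 72.7 in shYEATS2, against 38.7 and 17.3 for KRT8, 36.2 and 30.6 for KRT10 and 36.0 and 24.5 for KRT18. These levels depend on the length used. With the longest transcript as length, chosen after the data were seen, KRT8 was at 93.0 and 41.5 and KRT18 at 52.9 and 36.0, while KRT81 and KRT10 stayed as given. KRT34 (chr17:41377669-41382306), a type I hair keratin, had 1.15 and 0.715 CPM in shControl and 6.67 and 5.26 CPM in shYEATS2. Its rise, a log2 fold change of 2.68 (SE 0.24, edgeR adjusted p = 2.17e-15), was the highest among the keratins tested. KRT86 had 3.11 and 1.96 CPM in shControl and 3.79 and 1.78 CPM in shYEATS2, so its libraries overlapped, and its log2 fold change was 0.24 (SE 0.27, adjusted p = 0.490). KRT82 and KRT83 had 1 to 5 counts in every library and were not tested.

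Among the 7 other epithelial keratins only KRT80 (chr12:52168996-52192014) was tested, a type II chain found at cell edges in differentiating epithelium. It had 2.01 and 2.54 CPM in shControl and 6.71 and 5.43 CPM in shYEATS2, and rose with a log2 fold change of 1.45 (SE 0.20). None of the 9 inner root sheath and companion layer keratins passed the filter. In all, 40 keratins were untested, of which 21 had no count in any library (17 type I, 3 type II and KRT222) and 19 had some, with at most 15 counts and 0.397 CPM in a library. Changes in these genes were not tested.

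**Figure D2:**
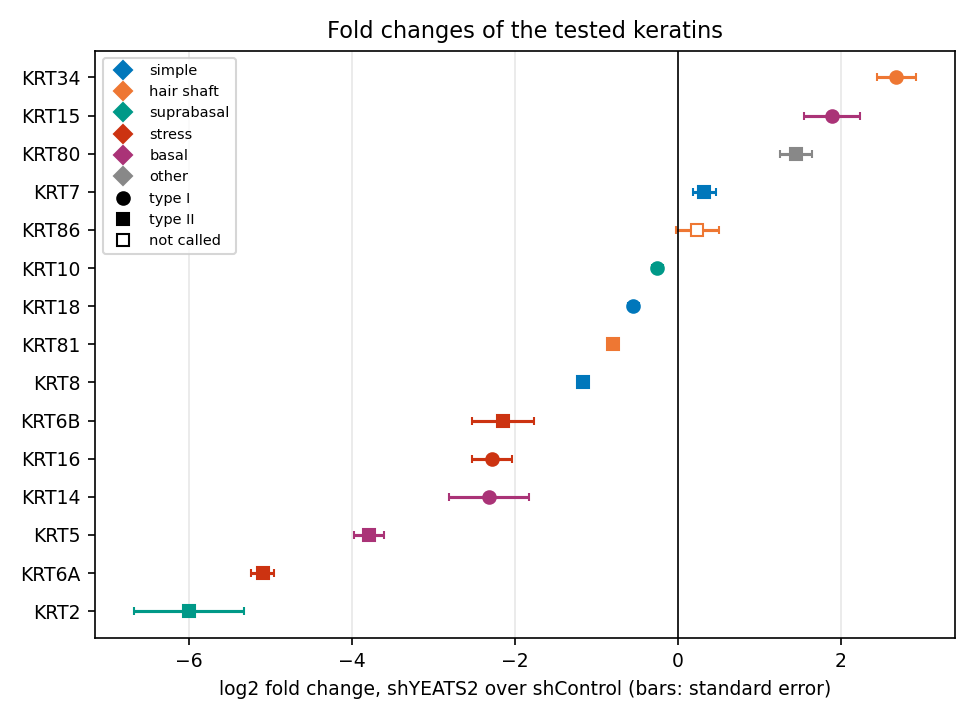
Log2 fold change of each tested keratin, shYEATS2 over shControl, with bars of 1 standard error derived from the edgeR F statistic. Colour gives the class, circles type I and squares type II, and the open square is KRT86, which was not called. Values run from −6.00 for KRT2 to 2.68 for KRT34, with KRT10, at −0.25, the called fall nearest to 0.

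The balance of both filament types was then compared. Among type I keratins, 4 of 6 tested were lower and 2 higher, with a median log2 fold change of −0.40. Among type II keratins, 6 of 9 tested were lower and 2 higher, with a median of −1.16. The median over all genes tested was −0.01, and over all tested keratins −0.79. Summed over all members per kilobase of exon, the log2 ratio of type I to type II was −1.31 and −1.40 in shControl and −0.72 and −0.64 in shYEATS2. The difference of 0.67 exceeded the spread between libraries, an SD of 0.06 in each group (n = 2). An exact two-sided permutation of 2 libraries against 2 cannot give a p below 0.3333, so none is given for such single values.

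The partners of the 3 pairs compared did not keep their ratio. The log2 ratio per kilobase of KRT8 to KRT18 was 0.12 and 0.08 in shControl and −0.51 and −0.50 in shYEATS2. With the longest transcripts as length it was 0.83 and 0.79 in shControl and 0.20 and 0.21 in shYEATS2, so which member is higher in shYEATS2 depends on the length, and the fall of the ratio does not. That of KRT6A to KRT16 was 3.13 and 3.30 in shControl and 0.30 and 0.55 in shYEATS2. For KRT5 over KRT14 it was 2.86 and 2.78 against 1.02 and 2.13, the last group resting on 7 and 2 KRT14 counts. In each of these 3 pairs the type II member lost more than its type I partner and the groups did not overlap. This did not extend to KRT6B, the other tested KRT6 gene. Its log2 fold change of −2.14 (SE 0.38) was close to that of KRT16, −2.28 (SE 0.25).

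As shares of all keratin mRNA per kilobase, which do not depend on the scaling between libraries but do depend on the length used, stress keratins went from 8.02% and 8.67% in shControl to 0.673% and 1.09% in shYEATS2. Basal keratins went from 1.70% and 1.59% to 0.472% and 0.491%. Suprabasal keratins, almost all KRT10, made up 14.6% and 12.9% in shControl and 18.6% and 20.8% in shYEATS2. The share of simple keratins overlapped between the groups, at 28.0% and 28.8% against 28.6% and 27.8%. Hair shaft keratins held 47.5% and 47.7% against 50.7% and 49.0%, while KRT81 alone held 46.3% to 47.2% in each library. Keratins as a whole went from 0.0774% and 0.0745% of all counts to 0.0467% and 0.0436%.

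**Figure D3:**
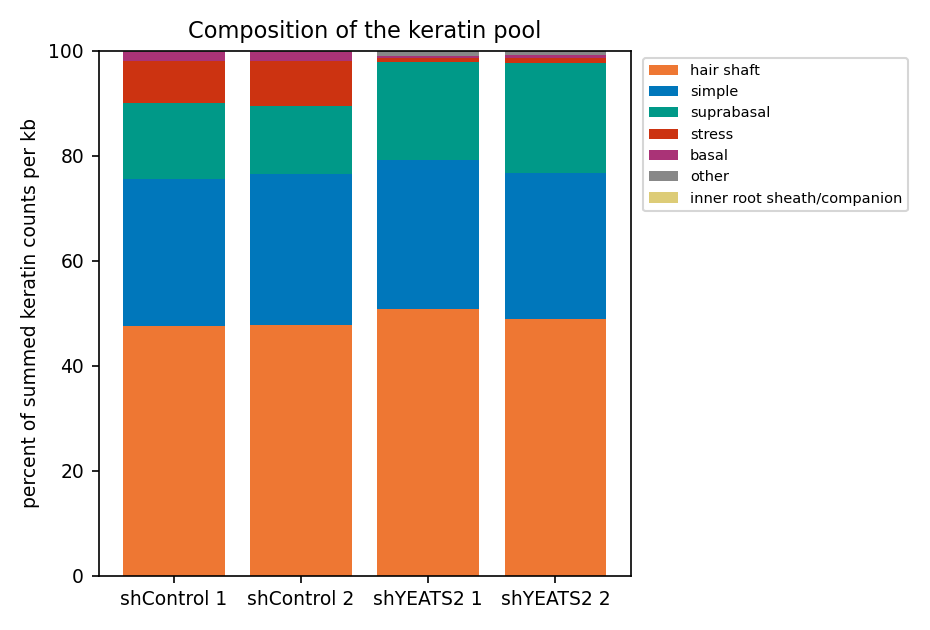
Composition of keratin mRNA in each library, as percent of summed keratin counts per kilobase of exon; each bar adds to all keratins and colours mark the classes. The stress band shrinks from 8.02% and 8.67% to 0.673% and 1.09%, and the simple band stays between 27.8% and 28.8%.

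Position along the chromosomes was described next, with no test. On chromosome 12 the 11 neighbouring keratins from KRT82 to KRT2 (chr12:52393931-52652211) hold KRT6A, KRT6B, KRT5 and KRT2, all 4 of them called lower, and no member called higher. This run was picked after its values had been seen. The 4 called keratins were the only tested ones of the 11. The 7 others had at most 7 counts in a shControl library and 3 in a shYEATS2 library, too few at these depths to give a direction. The summed level of the run, 76.2 and 77.7 CPM in shControl and 3.0 and 4.67 CPM in shYEATS2, was mainly that of KRT6A and KRT5. Of the 16 other keratins of the chromosome, 3 were lower and 2 higher, and KRT86 was the only other one tested. The risers KRT80 and KRT7 lay at one end and the fallers KRT8 and KRT18 at the other. On chromosome 17, 3 of 28 keratins were lower and 2 higher, and these were the only ones tested there. Only 10 of the 28 had a count in any library. Called genes thus made up all or nearly all tested keratins inside and outside the run.

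**Figure D4:**
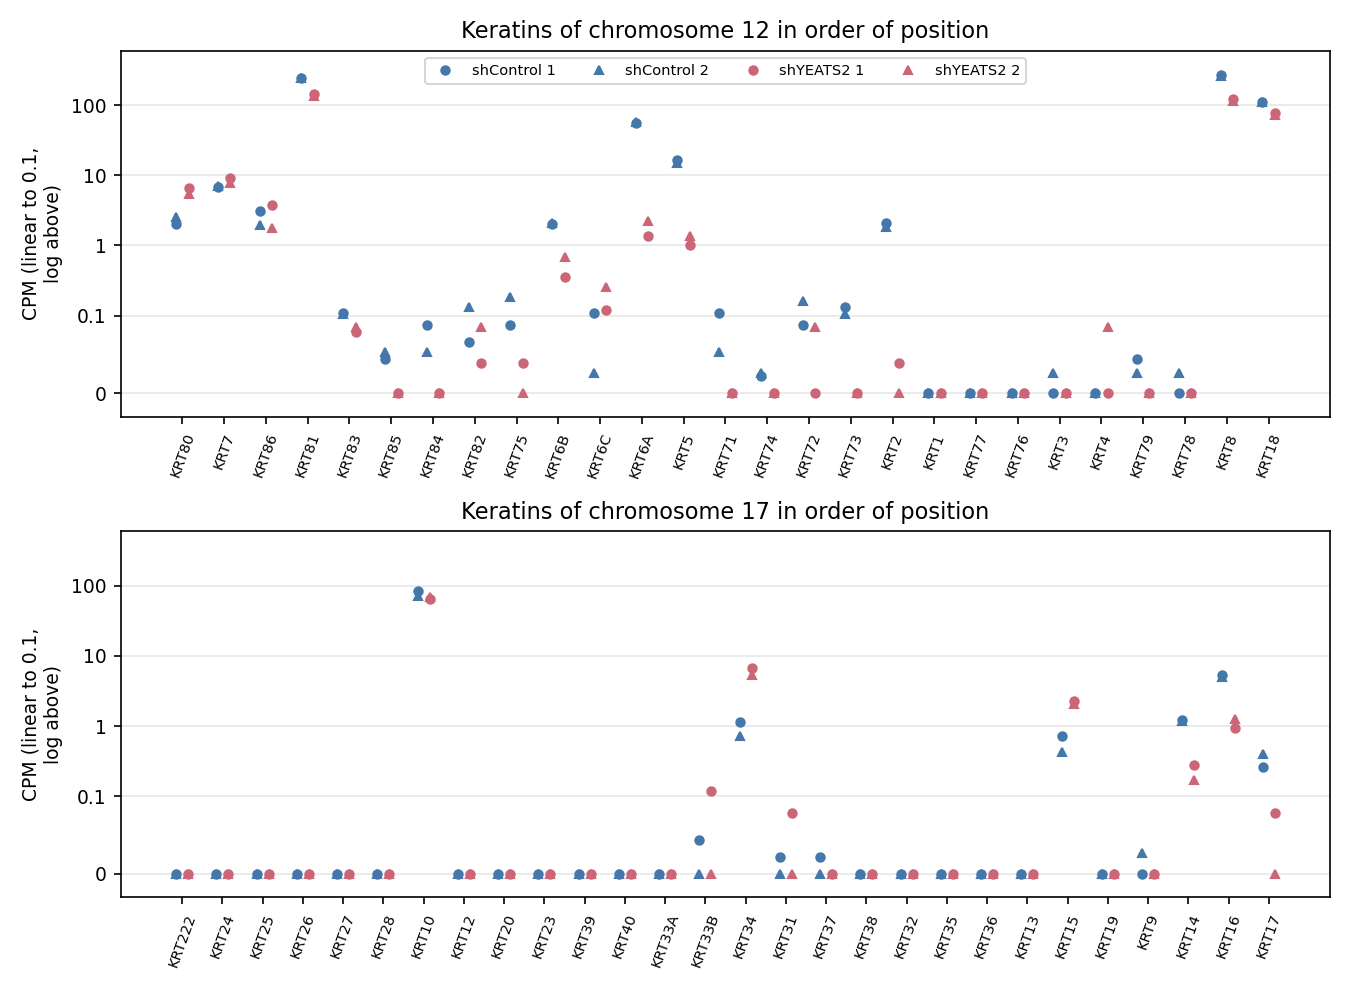
Level in each library of all keratins in their order along chromosomes 12 (upper panel) and 17 (lower panel), in CPM on an axis that is linear up to 0.1 and logarithmic above; colours and markers give group and replicate. From KRT82 to KRT2 the tested keratins KRT6B, KRT6A, KRT5 and KRT2 have both red points below both blue ones, the 7 others hold at most 7 counts in a library, and most genes of chromosome 17 lie at 0.

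Promoters of members that moved in different ways were set side by side: KRT2 and KRT5, which fell steeply, KRT34, which rose, and KRT10, which changed little. The sequences are the 120 bases before the RefSeq start (GRCh38.p14, all on the minus strand, read 5′ to 3′), with TATAA in capitals where it begins 40 to 20 bases before the start. They lie at chr12:52652212-52652331, chr12:52520395-52520514, chr17:41382307-41382426 and chr17:40822615-40822734 in that order.
KRT2: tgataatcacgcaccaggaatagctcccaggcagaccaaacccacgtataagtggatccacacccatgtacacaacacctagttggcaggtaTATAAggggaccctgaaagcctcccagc
KRT5: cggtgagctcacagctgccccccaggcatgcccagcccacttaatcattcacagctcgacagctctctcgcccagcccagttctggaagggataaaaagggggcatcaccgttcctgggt
KRT34: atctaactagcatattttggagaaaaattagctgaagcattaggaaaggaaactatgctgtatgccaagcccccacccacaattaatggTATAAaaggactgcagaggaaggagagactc
KRT10: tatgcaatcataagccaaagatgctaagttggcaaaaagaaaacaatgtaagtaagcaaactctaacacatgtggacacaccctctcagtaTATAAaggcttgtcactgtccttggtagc
RefSeq promoters matched 34 of the 55 keratins, with 38 entries, since KRT40 and KRT85 had repeated entries. Of the keratins tested for a change, only KRT2, KRT5, KRT8, KRT10 and KRT34 had an entry. KRT6A, KRT6B, KRT16, KRT14, KRT15, KRT18, KRT81, KRT7, KRT80 and KRT86 had none, so their promoters were not searched. The keratin counts that follow thus come mostly from keratins too low to test. TATAA in that window and on the gene's strand, the core of the TATA box, was in 22 of the 38 entries and in 3.77% of all 35116 promoters. TGANTCA, the core bound by AP-1, was searched on both strands in the 250 bases before the start and was in 0 of 38 and in 6.57% of all. GGGCGG, the core bound by SP1, was in 4 of 38 and in 42.6% of all, both strands again. KRT2, which fell, and KRT34, which rose, both hold TATAA, so both directions occur among promoters with these letters.

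Proteins that anchor or bind keratin filaments made a list of 25 genes, of which 17 were tested, 8 lower and 3 higher, with a median log2 fold change of −0.19. PPL, the periplakin that ties filaments to the cell envelope, fell by 0.86, the small heat shock protein HSPB1 fell by 0.69 and FAM83H, which organizes keratin filaments, fell by 0.63 on the log2 scale. JUP, the plakoglobin of desmosomes, rose by 1.84 and the chaperone DNAJB6 by 0.27. Desmoplakin, DSP, the protein that links keratins to desmosomes, is added after its values were seen: it had 5.56 and 5.90 CPM in shControl and 1.42 and 1.53 CPM in shYEATS2, and fell by 1.97.

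Markers of other cell types were set beside the keratins. Of the 22 squamous markers 16 were tested, 3 higher and 6 lower, with a median log2 fold change of −0.05. CDH3, the placental cadherin of basal cells, fell by 2.88 and TRIM29 fell by 1.36, while the integrin ITGA6 rose by 1.49 and PERP by 0.19. Of the 15 fibroblast markers 14 were tested, 11 lower and 1 higher (COL6A3, which rose by 2.47), with a median of −1.29. The shares over all genes tested were 23.6% lower and 22.6% higher. COL3A1 fell by 2.14, POSTN fell by 1.98 and DCN fell by 1.94. The part of these markers in the keratin results was not tested.

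**Figure D5:**
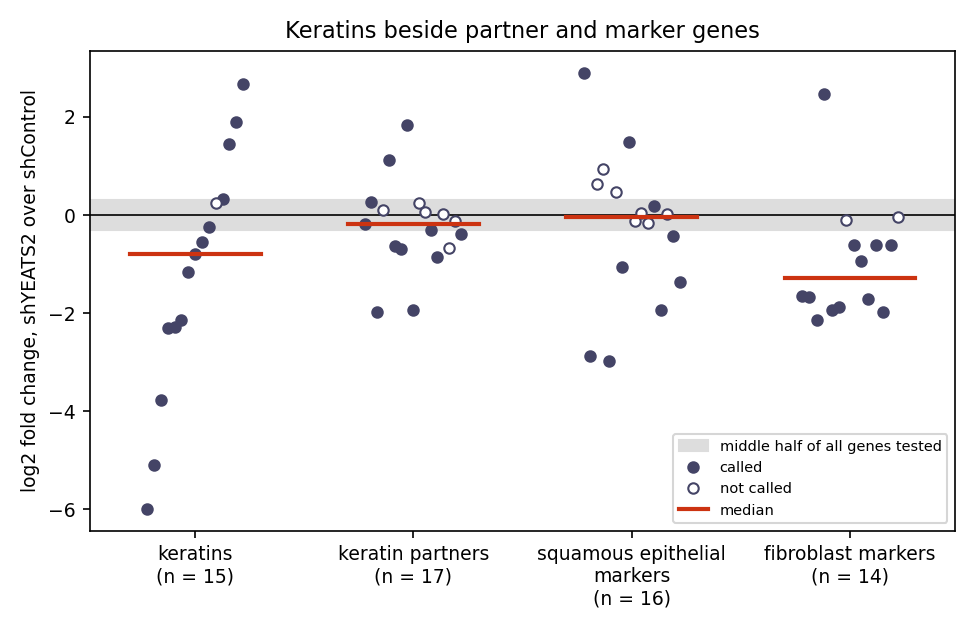
Log2 fold changes, shYEATS2 over shControl, of the tested keratins, keratin partners, squamous epithelial markers and fibroblast markers; filled points were called, open points were not, red bars are medians and the grey band spans the lower to the upper quartile of all genes tested. Medians are −0.79, −0.19, −0.05 and −1.29 in that order.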

How the data were processed

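RNA-seq was done by the authors on poly(A) RNA of BICR10 cells (2 shControl and 2 shYEATS2 libraries) with a stranded mRNA kit and 150 bp paired reads. Per the submitters' processing notes, reads were checked with FastQC, aligned to GRCh38 with STAR and counted with HTSeq. The deposited values are raw counts of read pairs per Ensembl gene, without normalization. Annotation release and strand setting of the counting are not given in the sources used here. The tally of pairs without a unique alignment came to 3.25% to 3.53% of all pairs, those in no gene to 7.64% to 8.57% and ambiguous ones to 4.31% to 4.61%. These 5 tally rows per file were left out of library sizes and tests.

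Genes were filtered with filterByExpr, scaled with TMM (factors 0.960, 0.950, 1.05 and 1.04) and tested in R 4.3.3 with the robust quasi-likelihood fit of edgeR 4.0.16. Calls are at a Benjamini-Hochberg adjusted p under 0.05 over all 17058 genes tested. SE is the absolute log2 fold change divided by the square root of the F statistic of the test. The common biological coefficient of variation was 4.95%. Replicates differed by more than counting noise (chi-square per degree of freedom over genes of 50 or more counts, 5.95 for shControl, 5.39 for shYEATS2). Lengths are the union of exons in GENCODE 44, which held 60295 of the gene identifiers. Uniqueness was the share of 100-base windows of these exons found once in the genome on either strand.

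Every keratin that passed the filter is named. From the other lists called genes with a mean of 10 CPM or more were ranked, and the 3 largest rises and falls are named, except 1 gene that is not reported here. KRT17 and the other low genes, DSP, and in the closing observations BFSP1, SOX2, CD14 and CSF1R were chosen after their values were seen. The keratin set, its classes and the gene lists were chosen with earlier results of these data known. Alternatives were DESeq2 1.42.0 and its size factors, library totals, dropping the filter or asking for 10 counts in each library, limma-voom (limma 3.58.1), a replicate block, thinned counts, a 2-fold minimum, other lengths and each library left out.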

Additional observations from a re-analysis of the deposited data

How the results depend on the processing

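The limits are 2 libraries in each group, lower depth in both shYEATS2 libraries and low counts for KRT2, KRT14 and KRT15. Over all alternatives 7 to 10 keratins were lower and 3 to 4 higher. The 7 came from the 2-fold minimum and from asking for 10 counts in each library. The latter left KRT2, KRT6B and KRT14 untested. Leaving out 1 library gave 9 to 10 lower and 3 to 4 higher, where the lone library of a group is assumed to vary like the other group. Of 177 recomputed keratin fold changes, 166 kept direction and call, 9 lost the call and 2 reversed. Calls were lost for KRT7, whose adjusted p was also 0.177 with no filter and 0.238 with thinned counts, and for KRT10. The cause was not tested. KRT86 reversed without shControl 2 (−0.04) and without shYEATS2 1 (−0.53), neither of them called, and spanned −0.53 to 0.62 leaving out 1 library. The other 12 keratins held in each of the 12 alternative settings of the fit that gave them a value. With the 2-fold minimum 7 were lower and 3 higher, since KRT81, KRT18, KRT10 and KRT7 changed by less.

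With library totals alone the median log2 fold change of all genes was 0.13, against −0.01 with TMM, so the value of −0.12 for KRT10 lay below that median. DESeq2 called 2846 genes lower and 2393 higher, where edgeR called 4019 and 3857.

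The titles number the libraries but do not say whether same-numbered ones form pairs. Deviations of same-numbered libraries from their group means correlated at −0.018 over the genes tested. With 2 libraries in each group this cannot settle whether they were handled as pairs. With the replicate block 10 keratins were lower and 3 higher, and KRT7 lost its call (adjusted p = 0.0685).

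The basal share changed by −1.16 percentage points, by −1.60 with longest transcripts as length and by −1.36 with no length correction (−1.22 to −1.11 leaving out 1 library). The stress share changed by −7.46, and by −8.07 with thinned counts (−7.79 to −7.14). The change in the suprabasal share ranged from 4.87 to 7.08 percentage points. The hair shaft share changed by 2.22, by 3.34 with longest transcripts and by 3.47 with no length correction (1.34 to 3.10). The simple share changed by −0.20, by −1.26 with no length correction, and reversed without shControl 2 (0.198) and without shYEATS2 2 (0.176), from −0.607 to 0.198 leaving out 1 library. The change in the log2 ratio of type I to type II, shYEATS2 minus shControl, ranged from 0.63 to 0.72.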

Other observations

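Of 14 other intermediate filament genes listed, 8 were tested, 4 lower and 2 higher, beside 23.6% and 22.6% of all genes. VIM, the vimentin filament of mesenchymal cells, had 1550 and 1592 CPM in shControl and 1850 and 1715 CPM in shYEATS2 and rose by 0.18 on the log2 scale. BFSP1, a filament protein of the eye lens, had 4.52 and 4.76 CPM in shControl and 8.25 and 7.04 CPM in shYEATS2 and rose by 0.74. SYNM, the synemin that joins vimentin filaments, fell by 0.67, and the nuclear lamins LMNA fell by 0.36 and LMNB1 fell by 0.20.

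Of 19 transcription factors known to act in keratinocytes, 12 were tested, 9 higher and 1 lower, with a median log2 fold change of 0.42. Among all genes tested, 22.6% were higher and 23.6% lower. KLF4, a factor of the epidermal barrier, had 20.1 and 19.6 CPM in shControl and 60.2 and 52.7 CPM in shYEATS2 and rose by 1.52. TFAP2C rose by 0.87 and NFE2L2 by 0.46. SOX2, the fall, had 11.9 and 11.0 CPM in shControl and 4.18 and 6.02 CPM in shYEATS2.

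Of 6 endothelial markers 3 were tested, 1 higher and 1 lower. Their summed level was 35.6 and 36.6 CPM in shControl and 18.9 and 20.2 CPM in shYEATS2, mostly KDR, which fell by 1.0. Of 6 leukocyte markers the 2 tested, CD14 and CSF1R, fell. Their summed level was 2.67 and 2.57 CPM in shControl and 0.750 and 1.53 CPM in shYEATS2.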
